A study of Mus musculus with 6 samples.

Results

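Homeobox genes encode transcription factors that share a DNA-binding homeodomain. All genes of 14 homeobox name families (Hox, Pbx, Meis, Tgif, SINE, Lhx, Msx, Dlx, Irx, Pitx, Prrx, Zfhx, Satb and Cux) were taken by symbol from the deposited expression table of 3 mouse mammary cell lines. The names matched 51 of the 11417 listed rows, or 50 symbols, since Dlx6os1 was listed under 2 gene models. Of the 51 rows, 49 were protein coding and the 2 Dlx6os1 rows were noncoding transcripts. There were 18 Hox genes (7 Hoxa, 9 Hoxb and 2 Hoxc) and 33 other rows, of which 12 belonged to the TALE class, 9 to the NK-like class, 3 each to the SINE, PRD and CUT classes, 2 to the zinc finger class and 1 to the LIM class. Genes of the families that the table did not list, the Hoxd cluster among them, were not analysed here.

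Poly(A) RNA was sequenced in 6 libraries, 2 each from BC44, HC11 and C57MG, all of which the labels call mammary epithelial. HC11 is a clonal line from the gland of a pregnant mouse. No line was treated, and all were grown on plastic and harvested 2 days after plating on 10 cm dishes. Serum was 10% throughout. BC44 and HC11 shared RPMI1640 and insulin at 5 µg/ml, with EGF (epidermal growth factor) at 10 ng/ml given to HC11 alone. The C57MG medium was DMEM, and its insulin was at 10 µg/ml. Each line is 1 established line in 1 medium, so that line and medium cannot be told apart, and the labels do not say whether the 2 libraries of a line came from separate cultures.

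Hox genes lie in clusters on separate chromosomes, and their order along a cluster matches the order in which they act along the body axis, with low paralog numbers acting towards the head. Hox proteins bind DNA with partners of the TALE class, Pbx and Meis. Polycomb complexes keep Hox clusters silent in cells that do not use them, and trithorax proteins keep them active. In the mammary gland, Msx and Hox factors act in the early epithelial bud and the surrounding mesenchyme, and Hoxa5, Hoxb9 and Hoxc6 are among the Hox genes known there.

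Levels are in RPKM, reads per kilobase of gene scaled to the depth of the library, so that levels can be set side by side between genes. Estimated depth was 14290000 to 18580000 reads a library, and 9706 to 9895 genes reached 1 RPKM in a library. For a gene of 2 kb, a limit of 3 reads was worth 0.0807 to 0.105 RPKM. Tests were run with limma on log2(RPKM + 1), on which scale a difference understates the fold change of a low gene. A gene was called where its adjusted p (Benjamini-Hochberg over all 10759 tested genes) was under 0.05. A defined set of markers gave a check on the labels. Cdh1, the cadherin of epithelial junctions, stood at 137 and 119.5 RPKM in the BC44 libraries and at 107 and 109.98 RPKM in HC11. In C57MG it was 1.09 RPKM in replicate 1 and listed at 0 in replicate 2. The summed level of 17 epithelial markers was 5366 and 5168 RPKM in BC44, 3479 and 2578 RPKM in HC11, and 253 and 153 RPKM in C57MG, where 3 of the 17 (Krt14, Krt5 and Itga6) reached a mean of 1 RPKM. The summed level of 16 mesenchymal markers was 594 to 733 RPKM in BC44 and HC11 and 9185 and 8914 RPKM in C57MG. S100a4 and Vim, with means of 3739 and 2495 RPKM, made up most of the C57MG sum. Of the 16, 14 were called higher in C57MG than in each other line. Postn ran the other way, with means of 81.3 RPKM in BC44, 61.0 RPKM in HC11 and 2.42 RPKM in C57MG. Dcn was listed at 0 in BC44 and C57MG and stood at 1.68 and 3.78 RPKM in HC11. Krt14 and Krt5, keratins of basal cells, made up 88.1 and 88.3% of the epithelial sum in BC44. The other 15 epithelial markers summed to 639 and 604 RPKM in BC44, 1070 and 971 RPKM in HC11, and 119 and 88.2 RPKM in C57MG. Nearly all of this C57MG remainder was Itga6, at 112.55 and 86.8 RPKM. Itga6 ran against the other markers, at 13.8 and 16.5 RPKM in BC44 and 14.3 and 15.5 RPKM in HC11. Of the luminal markers, Krt8 was 0.038 and 0.064 RPKM in BC44, with Krt18 and Cldn3 listed at 0, whereas HC11 had Krt8 at 144 and 148 RPKM, Krt18 at 88.5 and 94.1 RPKM and Cldn3 at 80.4 and 68.9 RPKM. The C57MG libraries lacked most defining markers of the epithelial label they carry.

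Both C57MG libraries were poor in the Hox genes of the head-ward and middle paralog groups. Of the 18 Hox genes, 16 had their lowest mean level in C57MG alone, including 13 of 13 Hoxa and Hoxb genes of paralog groups 1 to 8. Hoxc13, listed at 0 in HC11 and C57MG alike, was tied and is not among the 16. Of the 33 other rows, 14 had their lowest mean level in C57MG. The same count was not made over all listed genes. A mean of at least 1 RPKM was reached by 13 Hox genes in BC44, 11 in HC11 and 3 in C57MG, Hoxb8 and Hoxb9 among the last. Among the 33 other rows the counts were 23, 24 and 23. In bulk RNA, fewer expressing cells and less RNA per cell cannot be told apart.

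**Figure D1:**
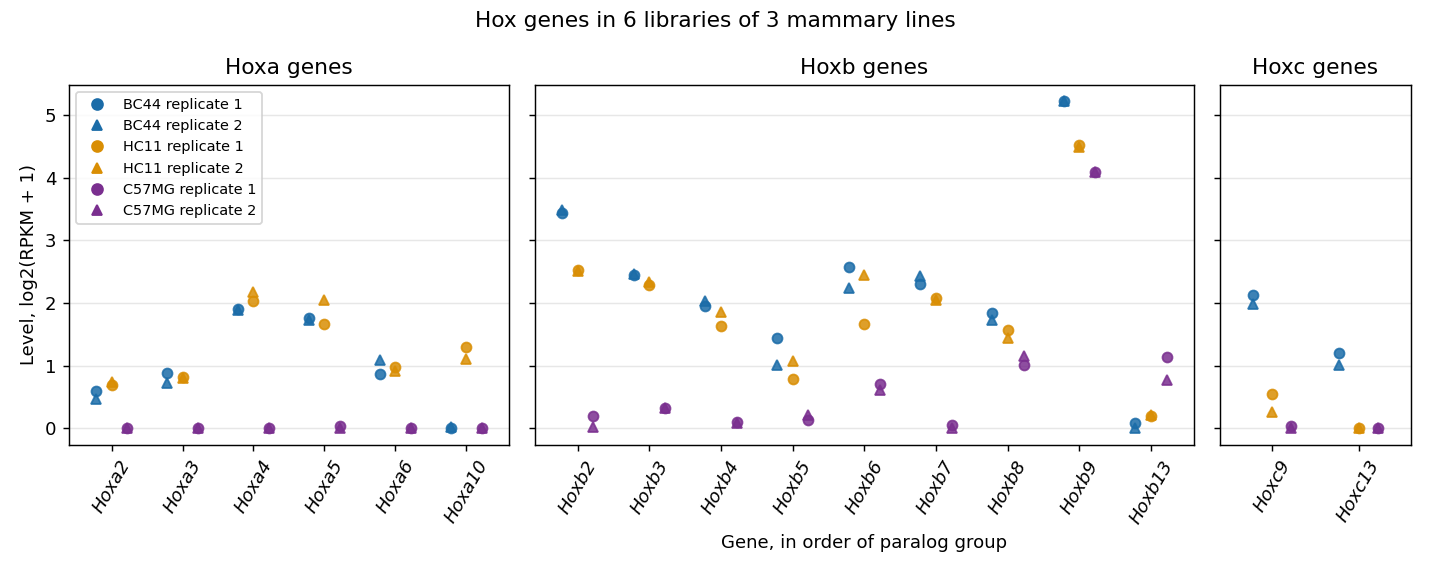
Levels of 17 listed Hox genes, as log2(RPKM + 1) on the vertical axis, by gene in order of paralog group for the Hoxa, Hoxb and Hoxc genes. Each point is 1 library, colour marks the line and shape the replicate. The C57MG points lie under 0.5 for 10 of the 12 Hoxa and Hoxb genes drawn of groups 2 to 8, whereas Hoxb9 is well above 0 in all 6 libraries.

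The stretch before the transcription start is shown for 5 members, taken from those whose windows held no annotated untranslated exon. Hoxa2, Hoxa5 and Hoxb4 were at or near 0 in C57MG, whereas Hoxb8, of the same cluster as Hoxb4, was not. Tgif2 is a member outside the Hox clusters that was near 0 in C57MG. All 5 had their lowest mean level in C57MG. The windows of Prrx2, Dlx1 and Meis3, which were highest in C57MG, overlapped untranslated exons and are not shown. Lhx6, also highest in C57MG, had windows without untranslated exons but was not among the members picked for display. The 5 shown are thus a choice and do not stand for the members as a whole. The sequences are the 250 bases before the annotated start in RefSeq (build GRCm38.p6), written on the gene's strand, with each CpG in capitals.
Hoxa2: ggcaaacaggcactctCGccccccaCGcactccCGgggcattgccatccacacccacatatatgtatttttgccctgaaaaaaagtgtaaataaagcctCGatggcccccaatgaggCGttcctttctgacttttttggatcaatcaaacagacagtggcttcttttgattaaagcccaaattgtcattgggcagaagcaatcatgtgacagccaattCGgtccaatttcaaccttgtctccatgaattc
Hoxa5: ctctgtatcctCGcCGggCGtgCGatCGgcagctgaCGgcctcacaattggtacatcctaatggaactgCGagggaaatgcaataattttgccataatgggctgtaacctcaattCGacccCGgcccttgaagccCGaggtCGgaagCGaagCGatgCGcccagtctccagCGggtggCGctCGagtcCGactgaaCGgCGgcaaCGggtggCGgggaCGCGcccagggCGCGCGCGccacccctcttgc
Hoxb4: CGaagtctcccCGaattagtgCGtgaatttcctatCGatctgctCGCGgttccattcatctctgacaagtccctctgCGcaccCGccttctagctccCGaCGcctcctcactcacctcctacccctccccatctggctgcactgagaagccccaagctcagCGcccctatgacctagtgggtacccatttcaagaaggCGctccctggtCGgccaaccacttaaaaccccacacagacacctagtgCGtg
Hoxb8: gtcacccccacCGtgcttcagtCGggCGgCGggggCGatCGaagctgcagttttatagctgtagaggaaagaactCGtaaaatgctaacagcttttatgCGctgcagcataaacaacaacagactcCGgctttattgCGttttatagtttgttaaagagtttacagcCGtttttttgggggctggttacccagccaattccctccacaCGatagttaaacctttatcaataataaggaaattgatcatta
Tgif2: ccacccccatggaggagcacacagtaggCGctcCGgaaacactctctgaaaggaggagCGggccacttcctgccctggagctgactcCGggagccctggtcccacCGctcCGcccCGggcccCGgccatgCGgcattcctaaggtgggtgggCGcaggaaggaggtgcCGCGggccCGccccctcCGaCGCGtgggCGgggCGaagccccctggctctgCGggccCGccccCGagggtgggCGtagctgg
These windows are chr6:52164832-52165081 on the minus strand for Hoxa2, chr6:52204588-52204837 on the minus strand for Hoxa5, chr11:96318017-96318266 on the plus strand for Hoxb4, chr11:96281655-96281904 on the plus strand for Hoxb8 and chr2:156839757-156840006 on the plus strand for Tgif2. They held 6, 28, 14, 12 and 22 CpGs in that order. The RefSeq table matched 28 of the 50 member symbols, with 38 promoters. Their median was 15 CpGs (2 to 40), beside 16 for the promoters of all genes in the expression table and 6 for all 32841 promoters. The CpG count did not order these 5 genes by their level in C57MG: Hoxb8, which was present there, had fewer CpGs than Hoxa5, Hoxb4 and Tgif2.

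The search covered 5 short motifs on both strands of the 38 windows, and no motif contains another. TAATTA, the core that many homeodomains bind, was found in 4 member promoters (10.5%), beside 2.38% of the promoters of all listed genes and 4.84% of all promoters. TATAAA, the TATA box, was found in 5 (13.2%, beside 6.29% and 12.4%), and the Hoxb8 window holds it at 2 places. CAGGTG, an E-box, was found in 5 (13.2%, beside 15% and 17.2%). TGATTGAT, a site for Pbx and Hox together, was found in 1, that of Hoxa2 (2.63%, beside 0.31% and 0.67%), and AACCGGTT, a Grainyhead-like site, in none (beside 0.215% and 0.116%). Of the 38 windows, 8 lay wholly and 11 partly within untranslated exons of annotated transcripts, and 19, the printed ones among them, did not. The Msx2 window, 1 of the 4 with TAATTA, lay wholly within them, and that of Prrx1 over 60 bases. The remaining TAATTA windows were both of the noncoding Dlx6os1. Their GC content was 33.2 and 34%, beside a median of 59.6% for the member promoters. With 38 promoters, the member shares rest on 0 to 5 windows each, and a match is a run of letters and not a measured site.

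Hoxa2, Hoxa3, Hoxa4, Hoxa5 and Hoxa6 formed a block that was present in BC44 and HC11 and absent or nearly so in C57MG.

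Hoxa4 stood at 2.75 and 2.70 RPKM in BC44 and 3.07 and 3.50 RPKM in HC11, and was listed at 0 in both C57MG libraries. Set against the limit of 3 reads per library, the excess over C57MG was at least 24-fold in BC44 and at least 29-fold in HC11. The log2 differences from C57MG were 1.90 ± 0.10 in BC44 (adjusted p = 2.08e-06) and 2.10 ± 0.10 in HC11 (adjusted p = 1.45e-06). Hoxa5, which patterns the lung and the mammary gland, was 2.41 and 2.32 RPKM in BC44, 2.18 and 3.16 RPKM in HC11, and 0.029 RPKM and 0 in C57MG, where a single read was estimated. Its ratio of BC44 to C57MG was 148 with a counting interval of 26.2 to 5893 (95%, exact), its ratio of mean RPKM was 81.5 without C57MG replicate 2, and its log2 difference was 1.73 ± 0.14 (adjusted p = 1.79e-05). Both genes were thus absent or nearly so in C57MG and present at 2 to 4 RPKM in each library of the other lines.

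Hoxa2, Hoxa3 and Hoxa6 were also listed at 0 in both C57MG libraries, but did not pass the filter of at least 1 RPKM in at least 2 libraries and were not tested. Hoxa2 stood at 0.508 and 0.378 RPKM in BC44 and 0.622 and 0.662 RPKM in HC11. Hoxa3 stood at 0.850 and 0.654 RPKM in BC44 and 0.756 and 0.745 RPKM in HC11, at least 25.04-fold and at least 24.99-fold above the limit in C57MG. Hoxa6 stood at 0.830 and 1.13 RPKM in BC44 and 0.964 and 0.887 RPKM in HC11, at least 4.73-fold and at least 4.48-fold above it. For Hoxa2 the bounds were at least 4.35-fold and at least 6.31-fold. The bounds differ with gene length and not only with level, since 3 reads are worth more RPKM on a short gene.

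Hoxa10, which acts in the uterus and hindlimb region, was the 1 Hoxa gene of 4 tested that was called between BC44 and HC11. It stood at 1.47 and 1.15 RPKM in HC11, at 0 and 0.018 RPKM in BC44, and at 0 in both C57MG libraries. Its log2 difference was -1.19 ± 0.10 for BC44 minus HC11 (adjusted p = 7.22e-05) and 1.20 ± 0.10 for HC11 minus C57MG (adjusted p = 2.46e-05), and it was at least 23.7-fold higher in HC11 than in C57MG. Hoxa4 and Hoxa5 were not called between BC44 and HC11, with log2 differences of -0.20 (95% interval -0.44 to 0.03) and -0.11 (-0.435 to 0.21).

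The listed Hoxb genes had the highest summed level of the Hox clusters in each line. Their 9 levels summed to 66.1 ± 0.915 RPKM in BC44, 42.1 ± 1.74 RPKM in HC11 and 19.3 ± 0.264 RPKM in C57MG (SD, n = 2). The difference was uneven along the cluster. The 7 genes of groups 2 to 8 summed to 29.8 ± 0.821, 20.3 ± 2.08 and 2.26 ± 0.00566 RPKM, whereas Hoxb9 and Hoxb13 together summed to 36.3 ± 0.094, 21.8 ± 0.337 and 17.0 ± 0.258 RPKM. Hoxb9 alone made up 54.9 ± 0.684% of the Hoxb sum in BC44, 51.4 ± 2.94% in HC11 and 83.3 ± 1.63% in C57MG.

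Hoxb2, the listed Hoxb gene nearest the 3′ end of its cluster, differed most from C57MG among the Hox genes on the log2 scale. It stood at 9.83 and 10.2 RPKM in BC44, 4.78 and 4.72 RPKM in HC11, and 0.143 and 0.019 RPKM in C57MG. The 3 lines did not overlap. Hoxb2 was 2.11-fold higher in BC44 than in HC11 (log2 difference 0.94 ± 0.11, adjusted p = 0.000336), 123-fold higher in BC44 than in C57MG (3.35 ± 0.11, adjusted p = 2.89e-07) and 58.6-fold higher in HC11 than in C57MG (2.41 ± 0.11, adjusted p = 9.98e-07). C57MG replicate 1 carried 9 estimated reads and replicate 2 carried 1. The log2 difference of BC44 from C57MG was 3.43 without C57MG replicate 1 and 3.27 without replicate 2. The ratios moved with the C57MG library used: without replicate 1 they were 526 for BC44 and 249.9 for HC11, and without replicate 2 they were 69.9 and 33.2.

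Hoxb3 stood at 4.44 and 4.50 RPKM in BC44, 3.87 and 4.04 RPKM in HC11, and 0.258 and 0.259 RPKM in C57MG, a 17.3-fold difference for BC44 (log2 2.12 ± 0.09, adjusted p = 9.28e-07). Hoxb4 stood at 2.87 and 3.08 RPKM in BC44, 2.12 and 2.64 RPKM in HC11, and 0.067 and 0.063 RPKM in C57MG, a 45.8-fold difference for BC44 (log2 1.90 ± 0.11, adjusted p = 3.62e-06). Hoxb7 stood at 3.94 and 4.38 RPKM in BC44, 3.21 and 3.12 RPKM in HC11, and 0.036 RPKM and 0 in C57MG (log2 2.34 ± 0.10, adjusted p = 7.25e-07). These 3 genes had a steady pattern, with all BC44 and HC11 libraries above 2 RPKM and all C57MG libraries under 0.26 RPKM. For HC11 minus C57MG, the log2 differences were 1.98 for Hoxb3, 1.66 for Hoxb4 and 2.03 for Hoxb7 (adjusted p = 1.57e-06, 8.16e-06 and 1.74e-06).

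Hoxb5 and Hoxb6 were more variable. Hoxb5 stood at 1.70 and 1.02 RPKM in BC44, 0.728 and 1.12 RPKM in HC11, and 0.098 and 0.161 RPKM in C57MG (BC44 minus C57MG, log2 1.05 ± 0.16, adjusted p = 0.000692). Hoxb6 stood at 4.98 and 3.73 RPKM in BC44, 2.18 and 4.44 RPKM in HC11, and 0.640 and 0.531 RPKM in C57MG (log2 1.75 ± 0.24, adjusted p = 0.000389). HC11 was also above C57MG, by 0.76 for Hoxb5 (adjusted p = 0.00386) and by 1.39 for Hoxb6 (adjusted p = 0.0014), and the Hoxb5 call was lost under quantile normalization (0.34, adjusted p = 0.16). The BC44 and HC11 libraries overlapped for both genes.

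For Hoxb8 and Hoxb9, towards the other end of the cluster, the difference was smaller, but the ratio did not fall steadily along it. The ratio of BC44 to C57MG was 7.435 for Hoxb6 and 216 for Hoxb7, with a counting interval for Hoxb7 of 38.3 to 8571. Hoxb8 stood at 2.59 and 2.32 RPKM in BC44, 1.98 and 1.72 RPKM in HC11, and 1.03 and 1.23 RPKM in C57MG. Its 3 lines did not overlap, but BC44 was only 2.18-fold above C57MG (log2 0.70 ± 0.11, adjusted p = 0.000734) and HC11 1.64-fold above it (0.42 ± 0.11, adjusted p = 0.01, and 0.106 without C57MG replicate 1). Hoxb9, whose loss together with its paralogs impairs mammary growth in pregnancy, was the most abundant Hox gene in all 6 libraries, at 36.3 and 36.2 RPKM in BC44, 21.9 and 21.4 RPKM in HC11, and 16.0 and 16.1 RPKM in C57MG. The order BC44, HC11, C57MG held without overlap, with log2 differences of 0.72 ± 0.08 for BC44 minus HC11 (adjusted p = 0.000231), 1.13 ± 0.08 for BC44 minus C57MG (adjusted p = 7.1e-06) and 0.41 ± 0.08 for HC11 minus C57MG (adjusted p = 0.00187). The ratio of BC44 to C57MG was 2.26 for Hoxb9, and for Hoxb2, of the same cluster, it was 69.9 or more with either C57MG library left out.

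Hoxb13, the last gene of the cluster and known from prostate and tail, ran the other way. It stood at 1.20 and 0.706 RPKM in C57MG, 0.146 and 0.158 RPKM in HC11, and 0.062 RPKM and 0 in BC44. It did not pass the filter and was not tested. By ratio it was 6.28-fold higher in C57MG than in HC11 and 34.5-fold higher than in BC44, the latter with a counting interval of 9.21 to 290 from 2 BC44 reads. Without BC44 replicate 2, the ratio of mean RPKM to BC44 was 15.4.

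The 2 listed Hoxc genes were BC44 genes. Hoxc9 stood at 3.35 and 2.97 RPKM in BC44, 0.465 and 0.201 RPKM in HC11, and 0.023 RPKM and 0 in C57MG. It was 9.49-fold higher in BC44 than in HC11 (log2 1.65 ± 0.12, adjusted p = 3.98e-05, and 15.7-fold without HC11 replicate 1) and its log2 difference from C57MG was 2.04 ± 0.12 (adjusted p = 3.92e-06). HC11 exceeded C57MG by 0.39 ± 0.12 (adjusted p = 0.0211), a call that was lost without C57MG replicate 1 (adjusted p = 0.104), C57MG replicate 2 (0.133) or HC11 replicate 1 (0.113) and under quantile normalization (0.166). Hoxc13, a gene of hair and nail, stood at 1.31 and 1.03 RPKM in BC44 and was listed at 0 in all 4 other libraries, at least 15.45-fold below BC44 in HC11 and at least 15.9-fold below it in C57MG. Its log2 difference was 1.11 ± 0.10 from each (adjusted p = 9.54e-05 against HC11 and 2.97e-05 against C57MG).

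Across all homeobox members, 44 of 51 passed the filter and were tested. The filter keeps a gene for the lines in which it is high, so the shares below are descriptions of the members that passed. Between BC44 and C57MG, 34 members were called, or 77.3%, where 71.7% of all tested genes were called. Of the 44 tested, 24 were higher in BC44 (37.5% of all genes) and 10 in C57MG (34.1%). Between HC11 and C57MG, 35 were called, or 79.5%, against 70.5% of all genes, with 26 of 44 higher in HC11 (37.4%) and 9 in C57MG (33.2%). Between BC44 and HC11, 25 were called, or 56.8%, against 47.7% of all genes, with 17 of 44 higher in BC44 (24.7%) and 8 in HC11 (23%). With this filter, the members' total shares called were within 10 points of the background in all 3 comparisons, so there the total does not set them apart. This depended on the filter. With a mean of at least 5 RPKM, 14 of 16 members were called in each comparison with C57MG and 12 of 16 between BC44 and HC11. These shares were more than 10 points above the background in all 3 comparisons. Without a filter this was so for HC11 against C57MG alone (42 of 51 members). By direction, the members called higher in BC44 or HC11 than in C57MG exceeded the background share, and those called higher in C57MG did not.

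Larger differences are given as a description only. Of the 44 tested members, 24 were called with a log2 difference of at least 1 for BC44 against C57MG, where 29.8% of all genes were. The counts were 19 of 44 for HC11 against C57MG (27% of all genes) and 8 for BC44 against HC11 (12.5%). The median log2 difference of tested members was 0.57, 0.46 and 0.27 in that order, beside 0.04, 0.03 and 0.02 for all tested genes. Of the 14 tested Hox genes, 13 were called higher in BC44 than in C57MG and 13 higher in HC11 than in C57MG. Of all tested genes, 37.5% and 37.4% were. No tested Hox gene was called lower in either, but the filter left out Hoxb13, which was higher in C57MG than in both other lines. The 30 other tested members split 11 to 10 and 13 to 9. The BC44 against HC11 count of members fell most when a BC44 library was left out, and the count over all genes fell most there as well. The comparisons share libraries, and are given side by side and not as separate support.

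**Figure D2:**
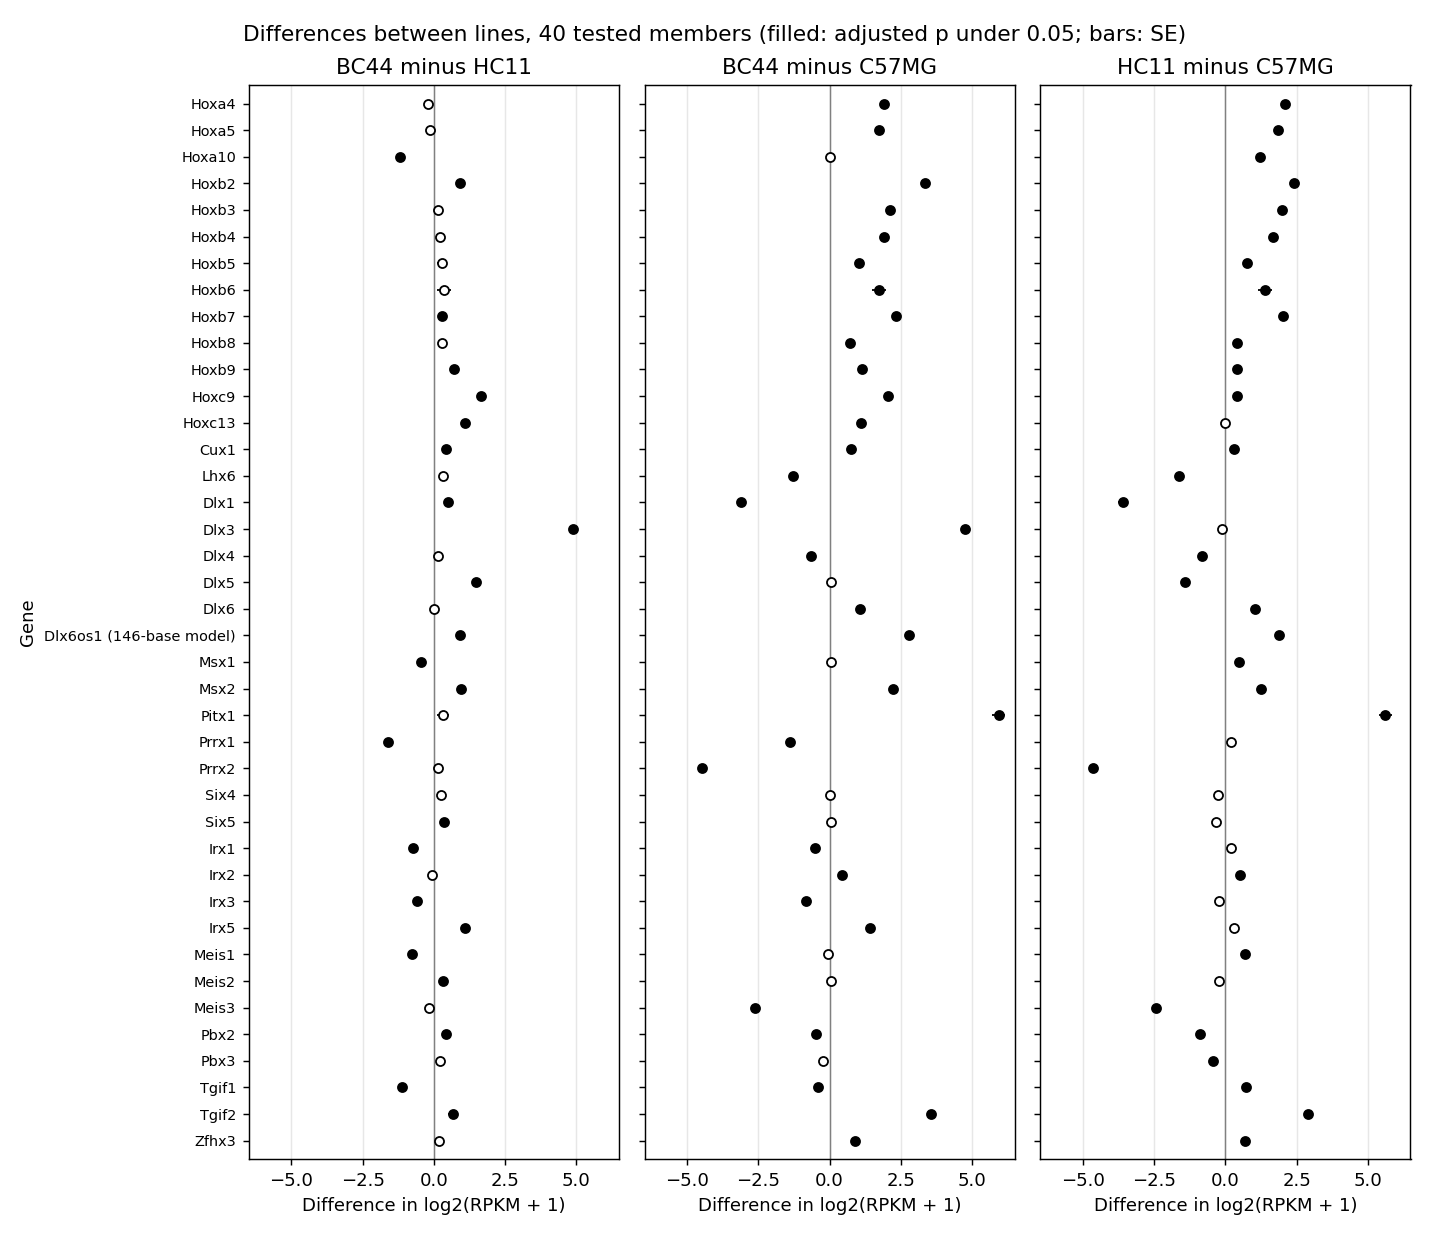
Differences between lines for 40 tested members on the log2(RPKM + 1) scale, with the Hox genes at the top. Points are limma estimates, bars their SE, and filled points have an adjusted p under 0.05. In both panels against C57MG no Hox gene has a filled point left of 0, but Hoxb13, higher in C57MG, was not tested and is not drawn.

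Outside the Hox clusters, single genes separated the lines by larger amounts. Pitx1, a paired-class factor that specifies hindlimb and pituitary, was the most abundant protein-coding member in BC44 and HC11. It stood at 79.7 and 76.5 RPKM in BC44 and 68.5 and 56.4 RPKM in HC11. In C57MG it was 0.667 RPKM in replicate 1 and listed at 0 in replicate 2. The ratio to C57MG was 234 for BC44 and 187 for HC11, with log2 differences of 5.94 ± 0.22 (adjusted p = 4.33e-07) and 5.61 ± 0.22 (adjusted p = 6.65e-07). These differences were 6.31 and 5.98 without C57MG replicate 1 and 5.57 and 5.24 without C57MG replicate 2. Without replicate 2 the ratios were 117 and 93.7, and without replicate 1 Pitx1 is listed at 0 in C57MG and has no ratio. BC44 and HC11 were not called different for Pitx1 (log2 0.32, 95% interval -0.20 to 0.84, adjusted p = 0.27).

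Prrx1 and Prrx2, paired-class factors of limb and skin mesenchyme, differed from each other in their pattern. Prrx2 stood at 24.3 and 28.0 RPKM in C57MG, 0.070 and 0.350 RPKM in BC44, and 0.082 and 0.071 RPKM in HC11. It was 124-fold lower in BC44 than in C57MG (log2 difference -4.49 ± 0.14, adjusted p = 2.85e-07) and 342-fold lower in HC11 (-4.65 ± 0.14, adjusted p = 2.68e-07). The BC44 ratio was 74.7 without BC44 replicate 1 and 373 without replicate 2. Prrx1 was present in 2 lines, at 1.61 and 1.79 RPKM in C57MG and 2.10 and 2.11 RPKM in HC11, and was 0 and 0.041 RPKM in BC44. The log2 difference of BC44 was -1.40 ± 0.09 from C57MG (adjusted p = 7.46e-06) and -1.60 ± 0.09 from HC11 (adjusted p = 1.45e-05), and HC11 and C57MG were not called different (0.20, -0.02 to 0.42). Prrx2 was thus a gene of C57MG, and Prrx1 one of C57MG and HC11.

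The Dlx genes, distal-less factors of limb, jaw and skin, gave a different pattern for nearly each member. Dlx3, a factor of epidermis and hair, stood at 27.6 and 31.6 RPKM in BC44, 0.020 and 0.053 RPKM in HC11, and 0.294 RPKM and 0 in C57MG. Dlx3 was the largest difference between BC44 and HC11 among the members, at 4.88 ± 0.14 (log2, adjusted p = 1.05e-06), a ratio of 850.5 with a counting interval of 291 to 4127 from 3 HC11 reads, and a ratio of mean RPKM of 1480 without HC11 replicate 2. Against C57MG it was 4.75 ± 0.14 (adjusted p = 2.75e-07), a ratio of 201, or 100.7 without C57MG replicate 2. Its neighbour Dlx4, on the same chromosome 11, stayed low in BC44: the ratio of Dlx3 to Dlx4 was 82.1 and 78.3 in BC44 but 0.284 and 0 in C57MG. Dlx4 stood at 1.04 and 1.27 RPKM in C57MG, 0.336 and 0.404 RPKM in BC44, and 0.215 and 0.235 RPKM in HC11, and C57MG was the higher line in both comparisons (log2 -0.65 and -0.81, adjusted p = 0.000585 and 0.000192).

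Dlx1 was a C57MG gene, at 15.8 and 15.0 RPKM there, 0.608 and 1.29 RPKM in BC44, and 0.369 and 0.310 RPKM in HC11. It was 16.3-fold lower in BC44, or 25.3-fold without BC44 replicate 2 (log2 -3.10 ± 0.17, adjusted p = 2.29e-06) and 45.4-fold lower in HC11 (-3.61 ± 0.17, adjusted p = 1.22e-06). The small excess of BC44 over HC11 (0.52, adjusted p = 0.0356) was lost when BC44 replicate 2 was left out (0.26, adjusted p = 0.157), and also without either C57MG or either HC11 library, with a filter on the mean and with only the 4 libraries compared.

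Dlx5 and Dlx6 are neighbours on chromosome 6 but did not move together. Dlx5 stood at 8.80 and 8.30 RPKM in BC44, 9.10 and 7.43 RPKM in C57MG, and 2.35 and 2.55 RPKM in HC11. It was 3.49-fold lower in HC11 than in BC44 (log2 1.47 ± 0.12, adjusted p = 6.74e-05) and 3.38-fold lower than in C57MG (-1.42 ± 0.12, adjusted p = 2.9e-05), and BC44 and C57MG differed by 0.05 (-0.23 to 0.33, adjusted p = 0.733). Dlx6 stood at 1.38 and 0.869 RPKM in BC44, 1.25 and 0.911 RPKM in HC11, and 0 and 0.027 RPKM in C57MG. Dlx6 was called higher in BC44 (log2 1.06 ± 0.14, adjusted p = 0.000308) and HC11 (1.03 ± 0.14, adjusted p = 0.000384) than in C57MG. So C57MG held Dlx5 at the BC44 level with 1 estimated read of Dlx6 in its 2 libraries.

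Dlx6os1 is a noncoding RNA that runs antisense across Dlx6. Its 2 rows, with annotated lengths of 146 and 5173 bases, had a fixed ratio of 35.8 to 35.9 in all 6 libraries, near their length ratio of 35.4, so they hold the same reads divided by different lengths and count as 1 measurement. On the shorter model it stood at 31.4 and 25.9 RPKM in BC44, 15.9 and 13.4 RPKM in HC11, and 3.41 and 3.11 RPKM in C57MG, from 7 to 67 reads a library. Its level on that short model cannot be set beside those of other genes. Across lines, it was 8.79-fold higher in BC44 than in C57MG (log2 2.79 ± 0.13, adjusted p = 1.05e-06), 4.48-fold higher in HC11 than in C57MG (1.87 ± 0.13, adjusted p = 9.52e-06) and 1.96-fold higher in BC44 than in HC11 (0.92 ± 0.13, adjusted p = 0.000926). Whether the counting used strand is not given in the sources used here, so reads of Dlx6 and Dlx6os1 may not be fully separated.

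The Msx genes, targets of BMP signalling in the mammary bud, also parted. Msx2 stood at 7.07 and 7.14 RPKM in BC44, 3.43 and 2.92 RPKM in HC11, and 0.834 and 0.666 RPKM in C57MG. The 3 lines did not overlap, and Msx2 was 9.48-fold higher in BC44 than in C57MG (log2 2.21 ± 0.11, adjusted p = 1.73e-06), 4.23-fold higher in HC11 than in C57MG (1.25 ± 0.11, adjusted p = 3.96e-05) and 2.24-fold higher in BC44 than in HC11 (0.96 ± 0.11, adjusted p = 0.000397). Msx1 stood at 3.31 and 3.18 RPKM in BC44, 3.13 and 3.04 RPKM in C57MG, and 5.01 and 4.46 RPKM in HC11. It was called higher in HC11 than in C57MG (0.49, adjusted p = 0.00365) and than in BC44 (-0.43 for BC44 minus HC11, adjusted p = 0.0112, and 0.0593 without BC44 replicate 2). Dividing Msx1 by Msx2 gave 0.468 and 0.446 for the BC44 libraries, 1.46 and 1.53 for HC11 and 3.75 and 4.56 for C57MG, so the more abundant of the pair changed from Msx2 in BC44 to Msx1 in the other lines.

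**Figure D3:**
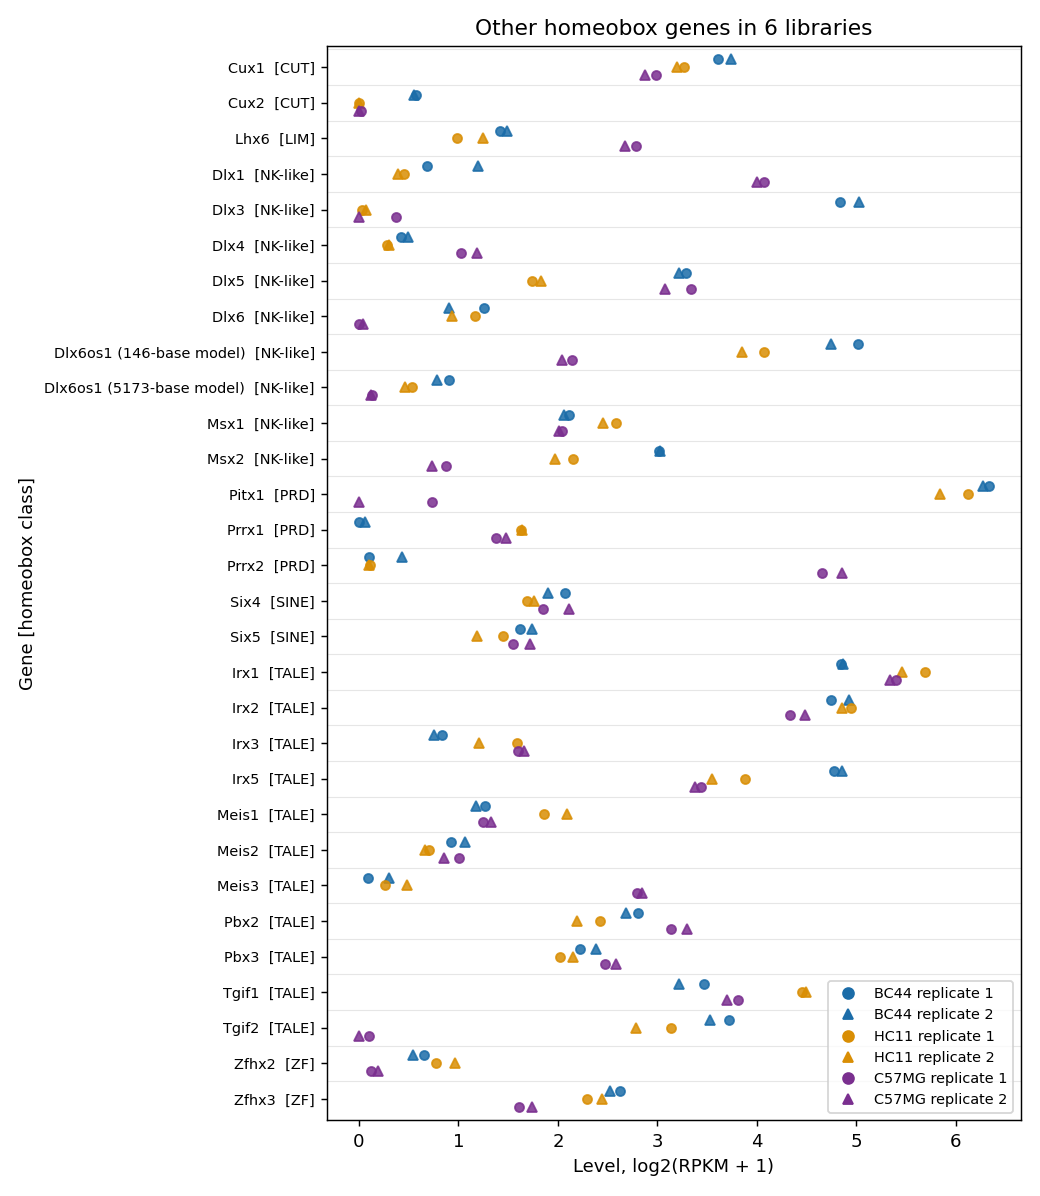
Levels of 30 rows outside the Hox clusters, as log2(RPKM + 1) on the horizontal axis, by gene with its homeobox class. Each point is 1 library, colour marks the line and shape the replicate. Pitx1, Dlx3 and Tgif2 lie near 0 in C57MG, Prrx2, Meis3 and Dlx1 lie highest there, and Six4 and Six5 lie close together across lines.

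Among the TALE genes, the Pbx and Meis families hold partners of Hox proteins. Pbx2 was lowest in HC11, with means of 5.71 RPKM in BC44, 3.97 RPKM in HC11 and 8.30 RPKM in C57MG. Its difference of HC11 from C57MG was -0.91 ± 0.12 (adjusted p = 0.000375). The smaller Pbx2 call of -0.47 for BC44 minus C57MG (adjusted p = 0.00998) was lost without BC44 replicate 2 (0.0638) or C57MG replicate 2 (0.076). That of 0.44 for BC44 minus HC11 (adjusted p = 0.0223) was lost without BC44 replicate 1 (0.12), BC44 replicate 2 (0.054) or HC11 replicate 2 (0.0856). Pbx3 had means of 3.94, 3.24 and 4.78 RPKM in BC44, HC11 and C57MG, with HC11 lower than C57MG (-0.45, adjusted p = 0.00905, and 0.0747 without C57MG replicate 2).

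Meis3 stood at 5.92 and 6.18 RPKM in C57MG, 0.065 and 0.234 RPKM in BC44, and 0.203 and 0.395 RPKM in HC11. It was 40.5-fold lower in BC44 than in C57MG (log2 -2.62 ± 0.12, adjusted p = 1.07e-06) and 20.2-fold lower in HC11 (-2.44 ± 0.12, adjusted p = 1.82e-06). The BC44 ratio was 25.9 without BC44 replicate 1 and 93.1 without replicate 2. Meis1 was instead highest in HC11, at 2.64 and 3.26 RPKM, beside 1.40 and 1.26 RPKM in BC44 and 1.38 and 1.51 RPKM in C57MG, and HC11 was called higher than both (-0.76 for BC44 minus HC11 and 0.69 for HC11 minus C57MG, adjusted p = 0.00139 and 0.00109). Meis2 had means of 0.995, 0.607 and 0.905 RPKM in BC44, HC11 and C57MG. Its call between BC44 and HC11 (0.31, adjusted p = 0.0415) was lost when BC44 replicate 1, C57MG replicate 2 or either HC11 library was left out (adjusted p 0.0621 to 0.123), with the replicate block (0.0552) and with only the 4 libraries compared (0.0528). BC44 and C57MG were not called different for Meis2 (0.07, adjusted p = 0.584).

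The Tgif genes encode repressors of retinoid and TGF-beta responses, and this pair split by line. Tgif2 stood at 12.1 and 10.5 RPKM in BC44, 7.79 and 5.89 RPKM in HC11, and 0.072 RPKM and 0 in C57MG, from 5 estimated reads in C57MG. The log2 difference from C57MG was 3.57 ± 0.14 in BC44 (adjusted p = 5.78e-07) and 2.91 ± 0.14 in HC11 (adjusted p = 1.83e-06), ratios of 315 and 189.9, or 157.5 and 94.9 without C57MG replicate 2. BC44 was above HC11 by 0.66 (adjusted p = 0.00748), a call lost without BC44 replicate 1 (adjusted p = 0.0576) and with a pseudocount of 0.1 (0.0783). Tgif1 stood at 20.8 and 21.5 RPKM in HC11, 13.02 and 12.02 RPKM in C57MG, and 10.1 and 8.31 RPKM in BC44. It was 2.31-fold higher in HC11 than in BC44 (log2 -1.13 ± 0.11 for BC44 minus HC11, adjusted p = 0.000162) and 1.69-fold higher than in C57MG (0.72, adjusted p = 0.000709). BC44 was below C57MG by 0.41 for Tgif1 (adjusted p = 0.0106, and 0.0623 without BC44 replicate 2 and 0.071 without C57MG replicate 1). C57MG thus had Tgif1 with hardly any Tgif2, and BC44 had both at like levels, with a Tgif1 to Tgif2 ratio of 0.830 and 0.788.

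Of the Irx genes, Iroquois factors that lie in clusters, Irx1, Irx2 and Irx5 were among the most abundant members in all lines. Irx1 and Irx2, linked on chromosome 13, had mean levels of 28.0 and 27.6 RPKM in BC44, 46.8 and 28.9 RPKM in HC11, and 40.4 and 20.2 RPKM in C57MG. Irx1 was lower in BC44 than in HC11 (log2 -0.71, adjusted p = 0.000761) and C57MG (-0.51, adjusted p = 0.00186), and Irx2 was higher in BC44 (0.43, adjusted p = 0.0053) and HC11 (0.50, adjusted p = 0.00275) than in C57MG. Irx5 stood at 26.4 and 28.0 RPKM in BC44, 13.7 and 10.7 RPKM in HC11, and 9.83 and 9.37 RPKM in C57MG. BC44 was 2.23-fold above HC11 (log2 1.11 ± 0.12, adjusted p = 0.000289) and 2.84-fold above C57MG (1.41 ± 0.12, adjusted p = 2.67e-05). Irx3, linked to Irx5 on chromosome 8, went the other way, at 0.788 and 0.681 RPKM in BC44, 2.00 and 1.31 RPKM in HC11, and 2.03 and 2.15 RPKM in C57MG. BC44 was lower than C57MG for Irx3 by -0.83 (adjusted p = 0.000995) and lower than HC11 by -0.60 (adjusted p = 0.00941, and 0.062 without BC44 replicate 2). The ratio of Irx5 to Irx3 was 33.6 and 41.2 in BC44 and between 4.36 and 8.20 in the other 4 libraries.

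Six4 and Six5 are sine oculis factors that act with Eya coactivators. Between BC44 and C57MG neither was called, with 95% intervals of the log2 difference of -0.29 to 0.30 and -0.25 to 0.34. Their mean levels were 2.96 and 2.21 RPKM in BC44, 2.96 and 2.11 RPKM in C57MG, and 2.31 and 1.498 RPKM in HC11, the lowest line for both. The Six5 call between BC44 and HC11 (0.36, adjusted p = 0.0481) was lost in 8 of 14 alternative analyses, and Six4 was not called in any comparison.

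Lhx6, a LIM factor of jaw mesenchyme and interneurons, stood at 5.88 and 5.40 RPKM in C57MG, 1.67 and 1.80 RPKM in BC44, and 0.975 and 1.38 RPKM in HC11. It was 3.25-fold higher in C57MG than in BC44 (log2 -1.28 ± 0.12, adjusted p = 4.95e-05) and 4.80-fold higher than in HC11 (-1.62 ± 0.12, adjusted p = 1.63e-05). Zfhx3, a large zinc finger and homeodomain protein, was lowest in C57MG, with means of 4.95, 4.18 and 2.19 RPKM in BC44, HC11 and C57MG (log2 0.90 and 0.70 above C57MG, adjusted p = 0.000211 and 0.000897). Zfhx2 stayed below 1 RPKM throughout and was left untested, with means of 0.516, 0.834 and 0.113 RPKM in the same order. Of the CUT class, Cux1 had means of 11.8 RPKM in BC44, 8.38 RPKM in HC11 and 6.63 RPKM in C57MG. The Cux1 difference of BC44 from C57MG was 0.74 (adjusted p = 0.000344), while that of BC44 from HC11 (0.45, adjusted p = 0.00898) was lost without BC44 replicate 2 (0.0602) and that of HC11 from C57MG (0.30, adjusted p = 0.0306) without either C57MG library or HC11 replicate 1. Cux2 was not tested, stood at 0.486 and 0.472 RPKM in BC44, and was listed at 0 in 3 of the 4 other libraries, at least 26-fold below BC44 in HC11.

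The low values of several members were uneven between the libraries of a line. As a share of the BC44 mean, Pitx1 was 0.855% in C57MG replicate 1 and 0 in replicate 2, Dlx3 0.993% and 0, Tgif2 0.635% and 0, and Hoxb2 1.43% and 0.19%. The epithelial markers had the same imbalance, with a median of 1.009% of the BC44 level in C57MG replicate 1 and 0.00895% in replicate 2, and 2 and 7 of 17 listed at 0. In the other direction, as a share of the C57MG mean, Prrx2 was 0.268% and 1.34% in BC44 replicates 1 and 2, Meis3 1.07% and 3.87%, and Dlx1 3.95% and 8.34%. The mesenchymal markers had a median of 1.86% and 3.38% in these libraries. Whether these traces and the markers share a source was not tested. The differences from C57MG of Pitx1, Tgif2, Hoxb2 and, where it could be refitted, Dlx3 kept their calls without either C57MG library, and those of Prrx2 and Meis3 without either BC44 library.

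**Figure D4:**
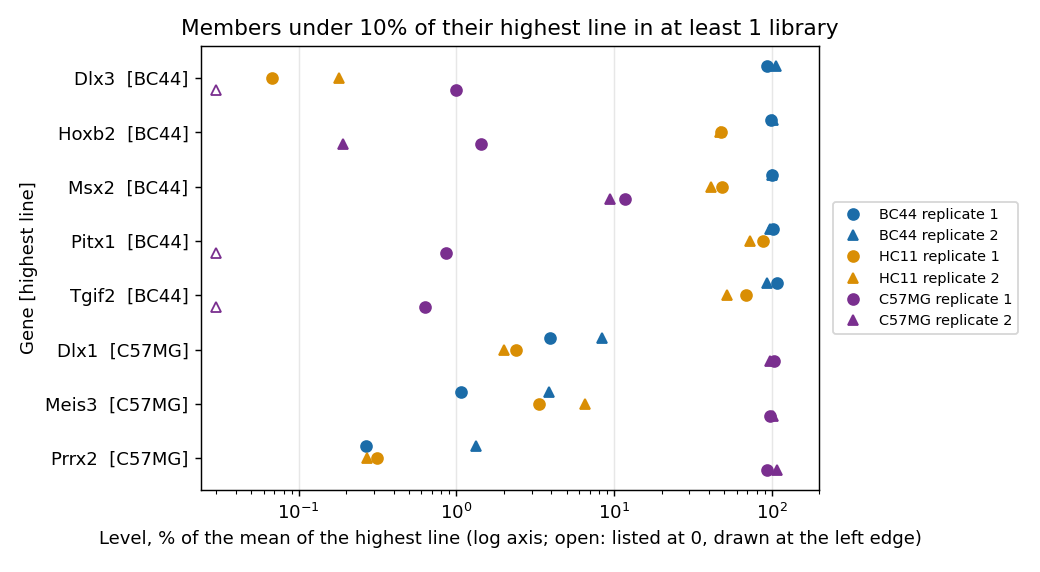
Levels as a percentage of the mean of the gene's highest line (log axis), for the 8 members that reach a mean of 5 RPKM in a line and fall under 10% of it in at least 1 library. Each point is 1 library, and open points are values listed at 0, drawn at the left edge. For Pitx1, Dlx3, Tgif2 and Hoxb2 the low level in C57MG replicate 1 is above that in replicate 2.

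Genes that act with or on homeobox factors were counted from lists. Of 28 Polycomb genes, all tested, 12 were higher and 10 lower in BC44 than in C57MG, 13 and 8 in HC11 against C57MG, and 8 and 6 in BC44 against HC11. The shares called were 78.6%, 75% and 50%, beside 71.7%, 70.5% and 47.7% of all tested genes in the same comparisons. Cbx2, a chromobox subunit that binds the Polycomb mark, stood at 24.1 and 22.1 RPKM in BC44, 17.9 and 15.6 RPKM in HC11, and 4.56 and 4.28 RPKM in C57MG (BC44 minus C57MG, log2 2.15 ± 0.10, adjusted p = 1.32e-06). Pcgf6, a subunit of a variant Polycomb complex, was also lower in C57MG, at 2.88 and 2.29 RPKM there beside 17.7 to 22.5 RPKM in the other libraries (2.61 ± 0.13, adjusted p = 1.7e-06). Phf1, an accessory protein of the methylating complex, was higher in C57MG (-1.49 ± 0.14, adjusted p = 4.95e-05). The list moved in both directions, with a median difference of -0.02 between BC44 and C57MG beside 0.04 for all genes.

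Of 14 trithorax and H3K27 demethylation genes, all tested, 6 were higher and 2 lower in BC44 than in C57MG, 6 and 5 in HC11 than in C57MG, and 3 and 2 in BC44 than in HC11. These were 57.1%, 78.6% and 35.7% of the list, against a background of 71.7%, 70.5% and 47.7%. Kdm6b, a demethylase that removes the Polycomb mark, stood at 9.98 and 9.08 RPKM in BC44, 9.98 and 10.04 RPKM in HC11, and 1.59 and 1.68 RPKM in C57MG (log2 2.00 ± 0.10 for BC44 and 2.06 ± 0.10 for HC11, adjusted p = 1.62e-06 and 1.64e-06). Wdr5, a core subunit of the methyltransferase complexes, was also higher in BC44 than in C57MG (0.72, adjusted p = 0.000107), and Psip1, a chromatin reader that tethers them, was lower (-1.42, adjusted p = 2.78e-06).

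Retinoic acid switches on the 3′ Hox genes. Of 21 pathway genes 10 were listed and 9 tested, of which 3 were higher and 5 lower in BC44 than in C57MG, 4 and 5 in HC11 than in C57MG, and 2 and 4 in BC44 than in HC11. Calls thus covered 88.9%, 100% and 66.7% of the 9 genes, where all genes gave 71.7%, 70.5% and 47.7%. Cyp26b1, which degrades retinoic acid, stood at 22.0 and 22.6 RPKM in BC44, 2.08 and 3.70 RPKM in HC11, and 0.240 and 0.187 RPKM in C57MG (BC44 minus C57MG, log2 4.26 ± 0.19, adjusted p = 8.58e-07). Crabp2, which carries it to the nucleus, was 63.4 and 52.7 RPKM in BC44, 97.2 and 77.3 RPKM in HC11, and 3.10 and 4.51 RPKM in C57MG (3.63 ± 0.17, adjusted p = 1.28e-06). Its receptor Rara was higher in C57MG, at 21.3 and 22.8 RPKM beside 5.33 to 7.30 RPKM in the other libraries (-1.57 ± 0.11, adjusted p = 7.52e-06). The direction therefore differed among genes of the pathway.

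Of 22 listed partners of the homeobox classes, all tested, 11 were higher and 8 lower in BC44 than in C57MG, 8 and 7 in HC11 than in C57MG, and 10 and 1 in BC44 than in HC11. The called shares of 86.4%, 68.2% and 50% stand beside 71.7%, 70.5% and 47.7% for all genes. Eya2, a coactivator of sine oculis factors, stood at 15.5 and 12.9 RPKM in BC44, 0.436 and 0.306 RPKM in HC11, and 0.075 and 0.022 RPKM in C57MG (BC44 minus HC11, log2 3.47 ± 0.12, adjusted p = 1.72e-06). Lmo1, a LIM-only protein, was 65.2 and 61.3 RPKM in BC44 and 1.26 and 1.30 RPKM in HC11 (4.82 ± 0.10, adjusted p = 3.73e-07), and Ssbp4, which stabilises LIM complexes, was the 1 partner called lower in BC44 than in HC11, at 0.742 and 1.44 RPKM beside 28.1 to 50.2 RPKM in the other libraries (-3.98 ± 0.17 for BC44 minus HC11, adjusted p = 3.9e-06).

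Homeobox genes of other names, 22 of 54 listed and 20 tested, had 11 higher and 8 lower in BC44 than in C57MG, 8 and 9 in HC11 than in C57MG, and 9 and 1 in BC44 than in HC11. Of the 20 tested, 95%, 85% and 50% were called, against 71.7%, 70.5% and 47.7% of all tested genes. Barx2, a Bar-class factor of epithelia, stood at 87.4 and 67.6 RPKM in BC44, 2.50 and 1.06 RPKM in HC11, and 0.693 and 0.034 RPKM in C57MG (BC44 minus HC11, log2 4.86 ± 0.31, adjusted p = 2.01e-05). Shox2, a limb factor, was 68.5 and 71.0 RPKM in BC44, 34.4 and 26.2 RPKM in HC11, and 5.07 and 5.56 RPKM in C57MG (BC44 minus C57MG, 3.49 ± 0.13, adjusted p = 4.15e-07). Hopx, a homeodomain protein that does not bind DNA, was lowest in HC11, at 0.104 and 0.180 RPKM beside 18.5 and 18.6 RPKM in BC44 and 6.39 and 9.80 RPKM in C57MG. Dlx3, Hoxc9, Barx2, Lmo1 and Eya2 were all high in BC44 and low in both other lines.

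Of 17 limb and mesenchyme factors 8 were listed and tested, with 3 higher and 4 lower in BC44 than in C57MG, 2 and 6 in HC11 than in C57MG, and 4 and 3 in BC44 than in HC11. With 8 genes, the called shares were 87.5%, 100% and 87.5%, and the background shares 71.7%, 70.5% and 47.7%. Bmp4, a ligand that induces Msx and Dlx genes, stood at 64.7 and 58.5 RPKM in C57MG, 0.400 and 0.876 RPKM in BC44, and 0.048 RPKM and 0 in HC11 (BC44 minus C57MG, log2 -5.27 ± 0.15, adjusted p = 2.71e-07). Twist1 and Twist2, mesenchymal factors, were also highest in C57MG, at 29.7 and 28.7 RPKM and at 22.7 and 25.04 RPKM, and differed from BC44 by -4.50 and -4.42 (adjusted p = 2.86e-07 and 2.71e-07). Bmp4 and the Twist genes shared their highest line with Prrx2, Meis3, Dlx1 and Lhx6, whereas Msx2 had its lowest level there.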

How the data were processed

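Poly(A) RNA libraries of 3 lines, 2 per line, were grouped by their labels. RPKM values were computed by the authors and deposited for 11417 genes, rounded to 3 decimals. STAR and build mm9 are named in the submitters' processing notes with no role given, and the counter, its use of strand and the gene lengths are not given in the sources used here. All 11417 identifiers matched GENCODE M21 (GRCm38), which was used for names, lengths and gene order, with no mm9 coordinates printed.

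Genes with at least 1 RPKM in at least 2 libraries (10759, leaving out 658) were fitted with limma 3.58.1 (R 4.3.3) after the transform log2(RPKM + 1), all 6 libraries sharing 1 estimate of spread, with 3 contrasts, an empirical Bayes trend and Benjamini-Hochberg adjustment within each. The fit was tested on simulated data. The labels do not say that replicates came from separate cultures, so p-values measure the spread between these libraries, which may be technical. An exact permutation test of 2 against 2 libraries cannot go below p = 0.33 and was not used. Replicates correlated at 0.99 to 0.996 across genes. Depth was estimated from the steps of low RPKM values, as the depth that best placed these values on whole reads. At that best fit, 76.3 to 79.1% of low values lay within 0.15 of a whole read, too few to recover reads. The share by chance at a depth fixed beforehand is 30%. Read numbers and folds against 0 use that estimate, and intervals (exact, 95%) and the 3-read limit cover counting error only. Fold changes without a bound are ratios of mean RPKM. All columns were used.

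Members whose mean reached 1 RPKM in a line (43) were named, except 4 that are not reported here, although the counts of members include them. Library values were given for those called with a log2 difference of at least 1 and no overlap, and for other members where a result needed them. Each partner list was given by its counts and the 3 genes with the largest differences. The members and lists were chosen with earlier results of these data known. Analyses were repeated with a pseudocount of 0.1, other filters, scalings, variance models and library sets, and a replicate block.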

Additional observations from a re-analysis of the deposited data

How the results depend on the processing

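Members that did not pass the filter in an alternative, such as Hoxa10 without either HC11 library, were not refitted there. Such cases count below as neither kept nor lost. Of the 86 called differences of the reported members, none changed direction in the alternatives where they were refitted. Of these, 7 lost their call under another setting and 15 when a library was left out, and the cause was not tested. Without a filter, 28, 41 and 42 of 51 members were called in the contrasts BC44 with HC11, BC44 with C57MG and HC11 with C57MG, an order kept below. With a mean of at least 5 RPKM, 12, 14 and 14 of 16 tested members were called. The counts fell since fewer members were tested, but the share of tested members called rose in each contrast. The share of all tested genes called hardly changed in either case. Leaving out 1 library at a time gave 13 to 22, 29 to 34 and 29 to 36 called members, and 3600 to 4758, 6128 to 7947 and 5835 to 7339 called genes. Deviations of same-numbered libraries correlated at 0.354, -0.039 and 0.038, and the labels do not say that the numbers pair them. With the replicate block, 23, 34 and 36 members and 5350, 7875 and 7721 genes were called.

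Reversals were limited to differences that were not called. For BC44 minus C57MG these were Hoxa10 (-0.034) and Meis2 (-0.045) under quantile normalization and Six4 (-0.017) under median-ratio scaling. Leaving out 1 library, the range crossed 0 for BC44 minus HC11 in Dlx6 (-0.091 to 0.201), Hoxa5 (-0.307 to 0.08), Hoxb6 (-0.033 to 0.741), Irx2 (-0.152 to 0.022) and Prrx2 (-0.009 to 0.327). It did so for BC44 minus C57MG in Dlx5 (-0.082 to 0.179), Meis2 (-0.008 to 0.137), Six4 (-0.126 to 0.135) and Six5 (-0.036 to 0.128), where Hoxa10 ranged from 0 to 0.026, and for HC11 minus C57MG in Dlx3 (-0.32 to 0.052). Depth limits members with fewer than 10 reads in a line, where 1 read more or less moves a ratio.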
